A study of Rattus norvegicus with 6 samples.

Results

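Astrocyte nuclei of the rat brain were taken here as resting by a rule on few genes, 48 h after permanent occlusion of the middle cerebral artery (MCAO). They held astrocyte transcripts and few transcripts of a short list of reactive genes. Gfap, which reactive astrocytes raise, was not limited, and most nuclei chosen in the infarcted hemispheres held it (80.1% and 77.1%). A nucleus was a member when it met the study's limits (at least 500 unique molecular identifiers, UMIs, 250 to 5000 genes and at most 5% mitochondrial UMIs), held at least 5 UMIs of Slc1a2, Slc1a3, Aqp4, Gja1 and Gfap together, making up at least 0.6% of its UMIs, and held at most 3 UMIs of the neuron genes Snap25, Syt1 and Rbfox3, at most 1 UMI of Cp and A2m, and at most 1 UMI of the reactive genes Cd44, Sema3c, Cald1, Ccl2 and Vim. This rule chose 1138 of 73649 nuclei, or 1.55%. Members were thus selected on the measured UMIs of these 15 genes, so their levels are given below as a description and no call is reported for them. The mitochondrial limit used UMIs of mitochondrial genes as well, and calls of those genes are marked as a description below.

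Astrocytes take up glutamate released at synapses, buffer potassium and water, and supply neurons with lipids and lactate. After injury they respond by enlarging, raising Gfap (an intermediate filament protein) and, near a lesion, dividing and forming a border. Astrocytes that keep their transporters while changing other genes can lie next to strongly reactive ones, and single nuclei allow them to be read separately.

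All rats were wild-type (WT) male animals of 12 weeks, and tissue was taken 48 h after the operation. Sham libraries (Sham L and Sham R) held the left and right hemispheres of the same 4 rats, which had the operation without occlusion. Libraries of MCAO rats held the left hemisphere, opposite the lesion (MCAO contra), or the right hemisphere with the lesion (MCAO ipsi), pooled from 3 rats with moderate infarctions (mMCAO) or 4 rats with severe ones (sMCAO). Each group therefore had 2 libraries that were not independent animals of one condition: the 2 Sham libraries shared their rats, and the 2 MCAO libraries of a hemisphere differed in infarct severity. The p-values below measure only the spread between these libraries.

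Sham L gave 176 members and Sham R 130, which were 1.34% (exact 95% binomial interval 1.15 to 1.55%) and 0.954% (0.798 to 1.13%) of the nuclei. MCAO contra gave 280 members from moderate (1.93%) and 186 from severe infarctions (1.72%), and MCAO ipsi 226 (1.75%) and 140 (1.62%). The share of all nuclei was thus lowest in Sham R, and the 4 MCAO libraries all lay above both Sham libraries under this rule. With no reactive UMI allowed, sMCAO ipsi (1.18%) lay below Sham L (1.30%). Without nuclei holding markers of other cell types it did so too (1.11% against 1.28%). Among members of at most 1500 UMIs, mMCAO ipsi (1.21%) and sMCAO ipsi (0.485%) lay below Sham L (1.34%). The order held under the other selections of nuclei tried. With 2 libraries a side, an exact permutation test cannot go below p = 0.333, so these shares were not tested. Intervals here and below cover counting error only.

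Set against all nuclei that met the astrocyte and neuron limits, members made up 99.4% (L) and 99.2% (R) in Sham and 97.9% (moderate) and 97.4% (severe) in MCAO contra. In MCAO ipsi they made up 72.9% (moderate) and 35.0% (severe). Nearly every astrocyte nucleus outside the infarcted hemisphere was therefore a member, while 84 nuclei in mMCAO ipsi and 260 in sMCAO ipsi went past the limits on the reactive genes or on Cp and A2m, against 1 to 6 in each other library. The rule itself draws this line, and the depth of a nucleus enters it, since a deeper nucleus reaches 2 UMIs sooner.

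**Figure D1:**
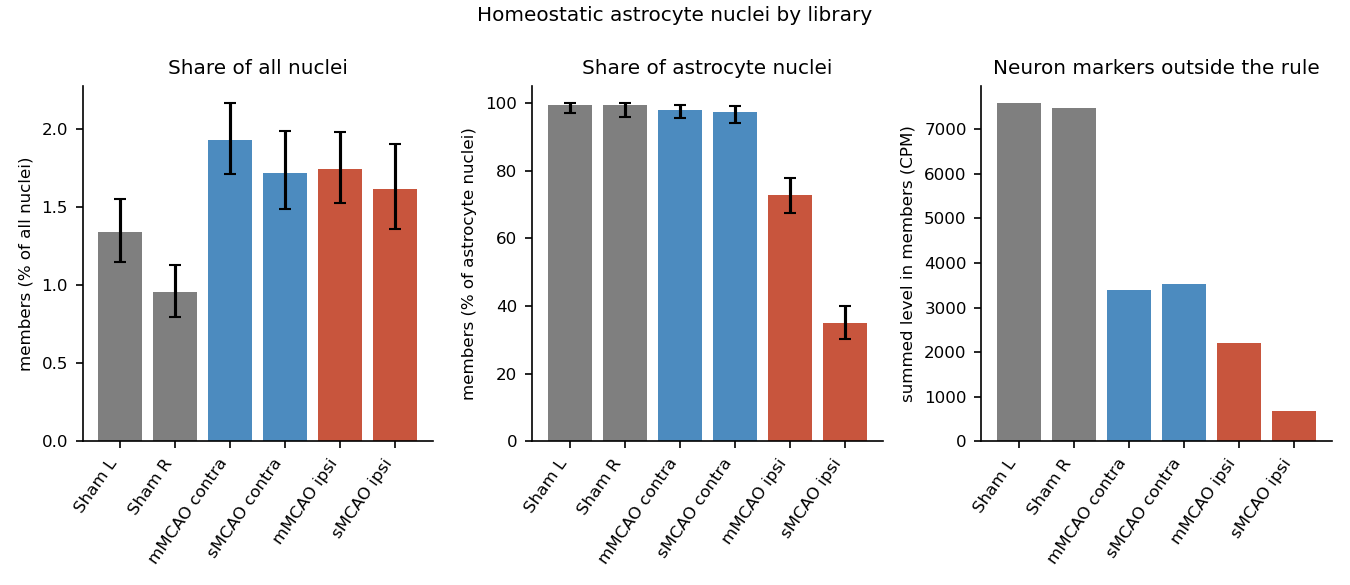
Left, members as a percent of all nuclei in each of the 6 libraries; middle, members as a percent of the nuclei that met the astrocyte and neuron limits; right, summed level of 19 neuron markers outside the rule in the members, in CPM, each gene's UMIs scaled to a common total. Bars are single libraries and error bars exact 95% binomial intervals; the middle panel falls from 99.4% in Sham L to 35.0% in sMCAO ipsi and the right panel from 7592 to 687 CPM.

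Depth differed between the groups. The median member held 765.5 (L) and 606.5 UMIs (R) in Sham, 1021 (moderate) and 880.5 (severe) in MCAO contra, and 1200.5 (moderate) and 1778 (severe) in MCAO ipsi. Summed over members, the libraries gave 140286, 86929, 298581, 173390, 294317 and 285280 UMIs for Sham (L, then R), MCAO contra (moderate, then severe) and MCAO ipsi (moderate, then severe), the order of libraries used below. The Sham members were shallow beside all nuclei of their libraries, whose medians were 3031 UMIs in Sham L and 2271.5 in Sham R, so Sham set the precision of most comparisons. No barcode of a member was shared between 2 libraries, although 3206 barcodes were shared between pairs of libraries among all nuclei.

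Nuclei just inside and just outside each limit were counted. Exactly 5 astrocyte UMIs were held by 81 members, and 28 nuclei that met all other limits were left out with 4. For the neuron genes, 33 members held 3 UMIs and 12 nuclei were left out with 4. For Cp and A2m, 85 members held 1 UMI and 20 nuclei were left out with 2, and for the 5 reactive genes the numbers were 124 and 55. The reactive limit was often reached in MCAO ipsi, where 21.2% of the mMCAO members and 27.1% of the sMCAO members held the 1 reactive UMI allowed, against 2.84% in Sham L and 2.31% in Sham R.

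Markers that the rule did not use bore out the astrocyte label. The 18 astrocyte markers outside the rule, among them Gpc5, Trpm3, Slc4a4 and Fgfr3, summed to 25662, 22719.7, 29952, 28162, 24599 and 25028 CPM in the order of libraries, where CPM is a gene's share of a library's summed UMIs on a common scale. In the neuron nuclei of the same libraries the sum lay between 3222 and 3669 CPM. Neuron nuclei held at least 5 UMIs, and 0.2% of their UMIs, of Snap25, Syt1 and Rbfox3. They held at most 4 UMIs of the astrocyte genes of the rule, so low astrocyte markers there were partly set by that choice. Gpc5, a glypican of the cell surface and the most abundant of these markers, was at 15490.0 CPM (L) and 13356 CPM (R) in Sham, 17643 (moderate) and 15428 (severe) in MCAO contra, and 13336 (moderate) and 10877 (severe) in MCAO ipsi. Of the 17 markers tested, 1 was called higher and 0 lower in MCAO ipsi against Sham, where 3.82% of all genes were called higher and 4.93% lower.

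Gfap, 1 of the genes whose UMIs admit a nucleus, is given as a description of what the rule let in. Gfap was at 271 CPM (L) and 414 CPM (R) in Sham, 646 (moderate) and 1211 (severe) in MCAO contra, and 2742 (moderate) and 3334 (severe) in MCAO ipsi. It was detected in 12.5% and 15.4% of the Sham members, in 70 of 280 and 88 of 186 of the MCAO contra members, and in 80.1% and 77.1% of the MCAO ipsi members. With every member thinned to 500 UMIs Gfap was found in 18, 13, 42, 63, 146 and 81 members (10.2% in Sham L, 33.9% in sMCAO contra and 64.6% in mMCAO ipsi). Among 1000 thinned neuron nuclei per library, at most 0.5% held a Gfap UMI, but the choice of neuron nuclei itself limited Gfap. Most members in MCAO ipsi thus held Gfap UMIs, which the rule allows, so the resting label rests on the limited genes and not on Gfap.

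The other genes required by the rule behaved differently from one another. Slc1a2, the main glutamate transporter of astrocytes, was at 9787 CPM (L) and 9502 CPM (R) in Sham, 11062 (moderate) and 10572 (severe) in MCAO contra, and 7876 (moderate) and 6519.9 (severe) in MCAO ipsi, lowest in both infarcted hemispheres. Slc1a3, the second glutamate transporter, stayed between 1796 and 2205 CPM in all 6 libraries. Aqp4, the water channel of the endfeet, was at 121 CPM (L) and 265 CPM (R) in Sham, 348 (moderate) and 248 (severe) in MCAO contra, and 781 (moderate) and 932 (severe) in MCAO ipsi. Gja1, the gap junction protein connexin 43, was at 157 CPM (L) and 253 CPM (R) in Sham, 281 (moderate) and 242 (severe) in MCAO contra, and 513 (moderate) and 445 (severe) in MCAO ipsi, and both genes were highest in MCAO ipsi. Among the genes limited by the rule, Cd44, a hyaluronan receptor, was at 7.13 CPM (L) and 11.5 CPM (R) in Sham, 23.4 (moderate) and 28.8 (severe) in MCAO contra, and 102 (moderate) and 52.6 (severe) in MCAO ipsi, and Vim, an intermediate filament gene, was at 0 UMIs in both Sham libraries and mMCAO contra and at 11.5, 23.8 and 42.1 CPM in sMCAO contra, mMCAO ipsi and sMCAO ipsi.

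**Figure D2:**
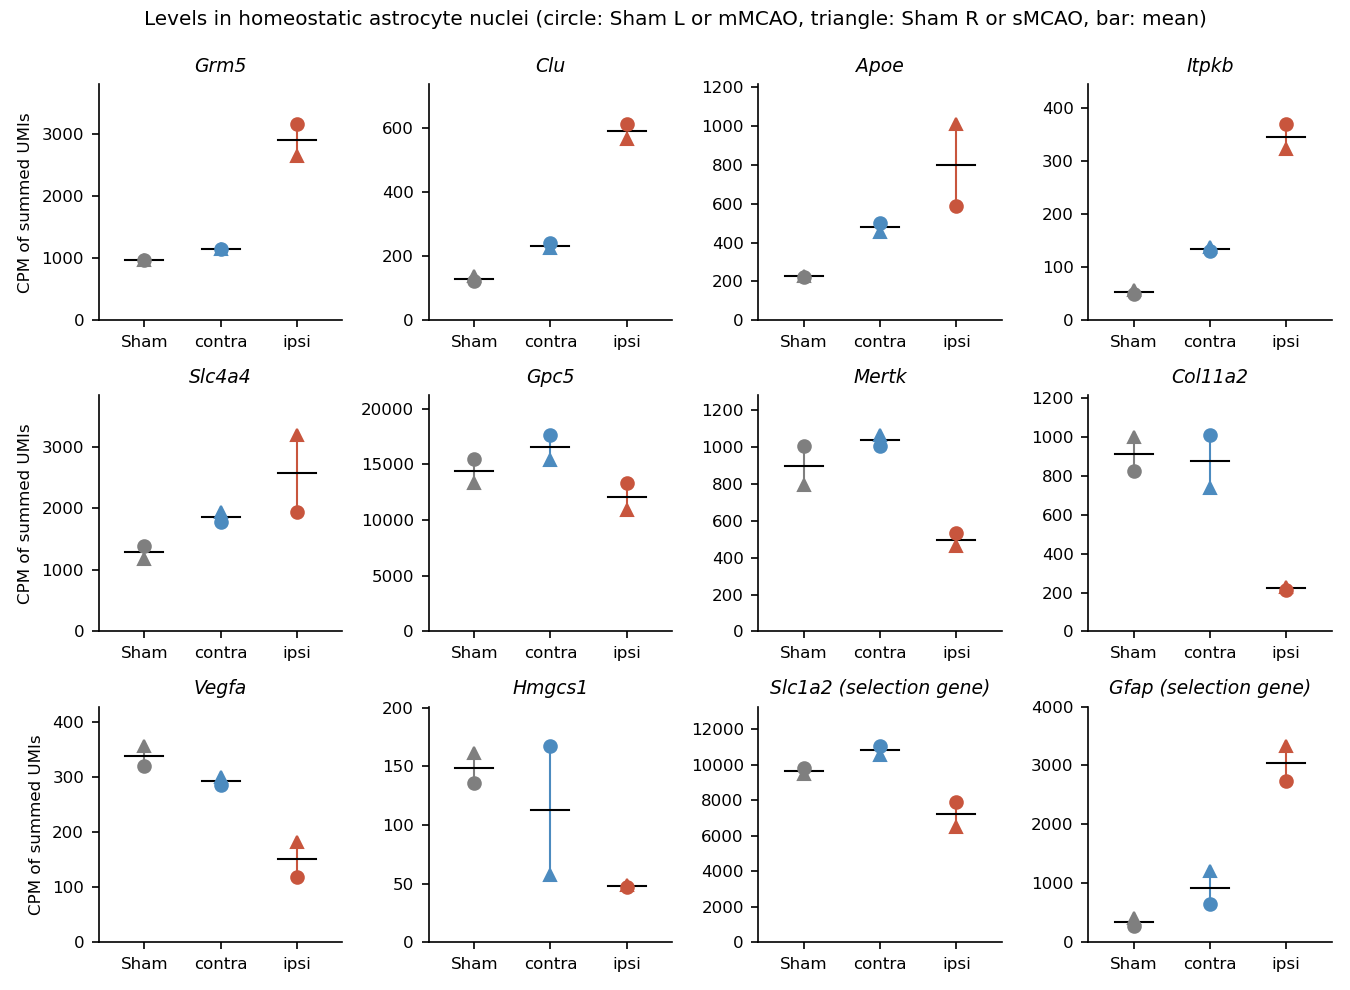
Level of 12 genes in the summed UMIs of the members (y axis, CPM, from 0) for Sham, MCAO contra and MCAO ipsi (x axis); circles are Sham L or mMCAO, triangles Sham R or sMCAO, black bars the mean of the 2 libraries. Grm5, Clu, Apoe, Itpkb and Slc4a4 lie higher and Mertk, Col11a2, Vegfa and Hmgcs1 lower in both MCAO ipsi libraries than in both Sham libraries; Slc1a2 and Gfap belong to the selection rule.

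Neuron transcripts in the members differed between the groups. The 19 neuron markers outside the rule that were found summed to 7592, 7477, 3403, 3529.6, 2198 and 687 CPM in the order of libraries. Neuron nuclei themselves held 23751 to 29748 CPM of them. The sum fell from Sham to MCAO contra to MCAO ipsi without overlap between the groups, in the same order as member depth rose. Taking these transcripts as free RNA, subtracting the profile of all nuclei of a library until these markers reached 0 removed 26.4, 26.0, 13.4, 14.2, 8.96 and 3.89% of the members' UMIs in the order of libraries given above. Every comparison is therefore given with UMIs as summed and with this free RNA subtracted.

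MCAO ipsi against Sham asks how the members of the infarcted hemisphere differed from those of control rats. Of 5111 genes tested with edgeR's quasi-likelihood test, 447 were called (8.75%) at a Benjamini-Hochberg adjusted p under 0.05 and a change of at least 0.6 on the log2 scale, 195 higher (3.82%) and 252 lower (4.93%). The median change over all genes tested was 0.02. The filter on low counts took 10 UMIs at the median depth (43.6 CPM) in at least 2 libraries. Of the genes called higher 47, and of those called lower 18, reached that limit only in libraries of the group where they were high, so their direction was largely fixed. With free RNA subtracted, 145 of 4581 genes were called (3.17%), 92 higher and 53 lower. Of the 195 genes called higher, 75 were called higher again, 115 were not and 5 were no longer tested. Of the 252 called lower, 50 were called again, 89 were not, and 113 fell out of the test because too few UMIs were left. The change of 12 of the 252 turned its sign after subtraction. A sum over nuclei cannot tell a level that moved in every member from one that moved in some of them, nor less RNA per nucleus from fewer nuclei that held it.

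**Figure D3:**
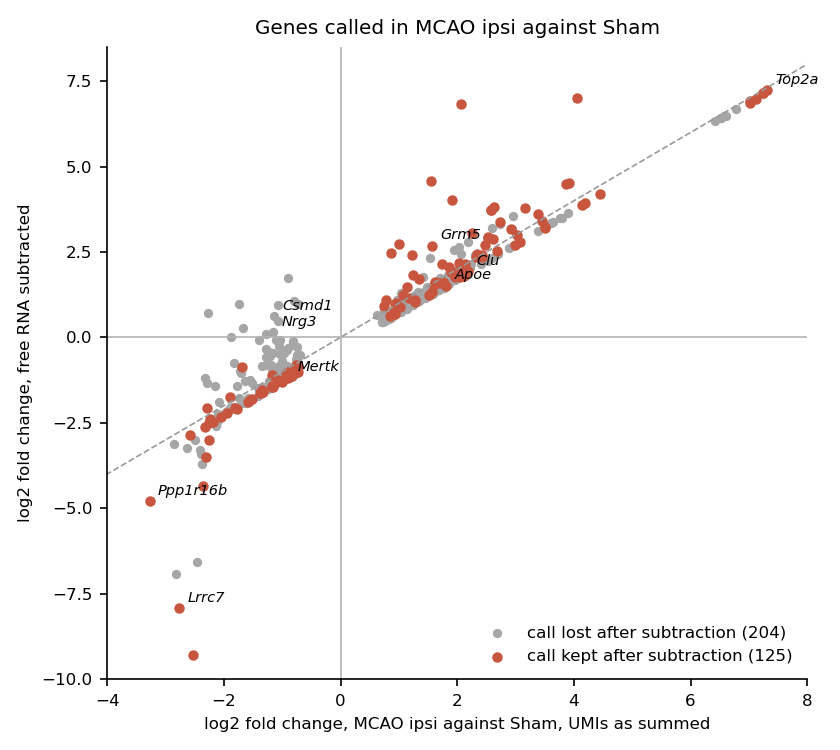
Log2 fold change of MCAO ipsi against Sham for the called genes still tested after subtraction, with UMIs as summed (x axis) and with free RNA subtracted (y axis); the dashed line marks equal values, red points kept their call (125 genes) and grey points lost it (204 genes). Genes lower as summed scatter furthest from the line, and 12 of them change sign, among them Csmd1 and Nrg3. The fitted changes near 7 belong to genes at 0 UMIs in both Sham libraries and depend on the prior count of the fit.

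The genes that were higher in MCAO ipsi members with and without the subtraction included the glutamate receptor gene Grm5 and the apolipoproteins Clu and Apoe. Grm5, a metabotropic receptor that couples glutamate to calcium release, was at 969 CPM (L) and 966 CPM (R) in Sham, 1145 (moderate) and 1142 (severe) in MCAO contra, and 3163 (moderate) and 2639.5 (severe) in MCAO ipsi. Its log2 change was 1.57 ± 0.18 (SE; adjusted p = 3.4e-06) and 2.69 after subtraction (adjusted p = 2.02e-06). Neurons hold much Grm5 RNA (2358 to 2525 CPM in neuron nuclei, with a change of -0.10 there). In members of at most 1500 UMIs, where the groups differ less in depth, the change of Grm5 was 1.03 with an adjusted p of 0.0667, and the call was lost.

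Brackets below give the log2 change ± SE and the adjusted p of the same test, and a single value beside a lost call is the adjusted p under that setting. Clu, a secreted chaperone that carries lipids, was at 121 CPM (L) and 138 CPM (R) in Sham, 241 (moderate) and 225 (severe) in MCAO contra, and 612 (moderate) and 564 (severe) in MCAO ipsi. Both infarcted hemispheres lay above both Sham libraries, as for 25.9% of all genes (2.19 ± 0.26, adjusted p = 5.03e-06). Apoe, the main lipid carrier made by astrocytes, was at 221 CPM (L) and 230.1 CPM (R) in Sham, 502 (moderate) and 456 (severe) in MCAO contra, and 588 (moderate) and 1009.5 (severe) in MCAO ipsi (1.81 ± 0.27, adjusted p = 7.11e-05). Neither gene lost its call under any of 22 other settings. Fabp7, a fatty acid binding protein of immature and reactive astrocytes, was at 21.4 CPM (L) and 0 CPM (R) in Sham, 23.4 (moderate) and 40.4 (severe) in MCAO contra, and 91.7 (moderate) and 140.2 (severe) in MCAO ipsi (8.76-fold the Sham level, counting interval 2.87 to 43.5; adjusted p = 0.00324), and it passed the filter through MCAO ipsi alone. Of the 19 tested genes of lipid transport and fatty acid metabolism, 4 were called higher (Clu, Apoe, Fabp7 and Abca1, which exports cholesterol) and 2 lower, where 3.82% of all genes were called higher and 4.93% lower, with a median change of 0.25 beside 0.02 over all genes, and of -0.03 after subtraction. After subtraction 3 of the 19 were called higher (Clu, Apoe and Fabp7) and 3 lower, so the list had no single direction, where 3.17% of all genes were called. Abca1 was not called after subtraction (adjusted p = 0.277). In neuron nuclei the changes of Clu, Apoe, Fabp7 and Abca1 were 0.43, 1.81, 2.10 and 1.51, with Apoe at 2.47 to 16.3 CPM there. Whether these rises are particular to astrocytes was not tested. Calls of the list's higher genes were lost without Sham L for Abca1 (0.48), without Sham R for Fabp7 (0.068) and Abca1 (0.088), without mMCAO contra for Abca1 (0.0557), without sMCAO contra for Abca1 (0.0554), and without sMCAO ipsi for Abca1 (0.0518) (adjusted p without that library). Fabp7 (0.0815) and Abca1 (0.416) were not called by DESeq2. Abca1 (0.112) lost its call without nuclei of 3 or more UMIs of other types. Fabp7 (0.0551) lost its call in members of at most 1500 UMIs.

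Further genes kept their call in the same direction after subtraction. Itpkb, a kinase of inositol trisphosphate, rose by 2.69 (adjusted p = 9.53e-06) and Pdgfc, a growth factor of the PDGF family, by 2.42 (adjusted p = 1.03e-05). Itpkb, Pdgfc, Rad51b (a DNA repair gene, 3.50) and Hectd2 (a ubiquitin ligase, 1.89) stayed called in each other setting in which they could be tested. These genes were singled out for their small p after their values were seen.

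Cebpd, Igfbp2, Ptn and Npas3 were called higher. Cebpd and Igfbp2 passed the filter on low counts through MCAO ipsi alone, so their direction was largely fixed by it. Cebpd, a transcription factor of the acute phase response downstream of the gp130 receptors, was at 7.13 CPM (L) and 11.5 CPM (R) in Sham, 33.5 (moderate) and 40.4 (severe) in MCAO contra, and 105 (moderate) and 109 (severe) in MCAO ipsi (12.2-fold the Sham level, counting interval 3.23 to 103; adjusted p = 0.0008). It was the only 1 of 9 tested genes of the gp130 and STAT3 list that was called, near the 8.75% of all genes called. Igfbp2, which binds insulin-like growth factors, was at 0 CPM (L) and 11.5 CPM (R) in Sham, 23.4 (moderate) and 5.77 (severe) in MCAO contra, and 84.9 (moderate) and 91.1 (severe) in MCAO ipsi (51 UMIs in MCAO ipsi and 1 in Sham, counting interval of the ratio 3.43 to 805; adjusted p = 0.00311), and Ptn, the growth factor pleiotrophin, was at 299 CPM (L) and 357 CPM (R) in Sham, 445 (moderate) and 611 (severe) in MCAO contra, and 866 (moderate) and 719 (severe) in MCAO ipsi (1.28 ± 0.23, adjusted p = 0.000676). Npas3, a transcription factor of the astrocyte lineage, was at 2937 CPM (L) and 2829.9 CPM (R) in Sham, 4240.1 (moderate) and 4746 (severe) in MCAO contra, and 4573 (moderate) and 5928 (severe) in MCAO ipsi (0.86 ± 0.16, adjusted p = 0.0008). Of 30 tested transcription factors and patterning genes of astrocytes, 3 were called higher (Npas3, Notch1 and Tcf7l1) and 0 lower, with a median change of 0.46, where 8.75% of all genes were called. Of these, Npas3 alone was called after subtraction, when the median was 0.24. In neuron nuclei the changes of Cebpd, Igfbp2, Ptn and Npas3 were 2.30, -0.11, 0.09 and -0.37. The adjusted p rose past 0.05 without Sham L for Cebpd (0.079), Igfbp2 (0.185) and Ptn (0.0729), and without Sham R for Npas3 (0.0555). Cebpd (0.0763) and Igfbp2 (0.132) were not called by DESeq2.

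Hspa5, Chl1, Adgrv1, Adamts9 and Gpc6 were called higher. Hspa5, the chaperone BiP of the endoplasmic reticulum, was at 21.4 CPM (L) and 23.0 CPM (R) in Sham, 26.8 (moderate) and 75.0 (severe) in MCAO contra, and 136 (moderate) and 126 (severe) in MCAO ipsi (2.53 ± 0.56, adjusted p = 0.00391) and was the 1 gene of 8 tested heat shock and unfolded protein genes called, where 3.82% of all genes were called higher. Chl1, a cell adhesion molecule, was at 164 CPM (L) and 184 CPM (R) in Sham, 131 (moderate) and 115 (severe) in MCAO contra, and 676 (moderate) and 477 (severe) in MCAO ipsi (1.73 ± 0.27, adjusted p = 0.000103). Adgrv1, an adhesion receptor, rose by 1.77 (adjusted p = 0.000879), Adamts9, a protease of the extracellular matrix, by 2.06 (adjusted p = 0.00188) and Gpc6, a glypican that astrocytes secrete at synapses, by 0.75 (adjusted p = 0.0147). In members of at most 1500 UMIs the changes of Chl1, Hspa5, Fabp7 and Gpc6 were 1.09, 2.08, 2.94 and 0.19, and none of them was called. With 1 library left out, calls were lost without Sham L for Hspa5 (0.155), Adgrv1 (0.0512), Adamts9 (0.0671) and Gpc6 (0.179), and without Sham R for Hspa5 (0.0552) and Gpc6 (0.175) (adjusted p). Hspa5 (0.0922), Adamts9 (0.074) and Gpc6 (0.187) were not called by DESeq2. Gpc6 (0.118) lost its call with reactive genes at 0 UMIs. Gpc6 (0.0995) lost its call without nuclei of 3 or more cell cycle UMIs. Gpc6 (0.0757) lost its call without nuclei of 3 or more UMIs of other types.

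Other genes of the astrocyte's resting tasks rose as summed and were not called after subtraction. Slc4a4, the sodium bicarbonate cotransporter, was at 1383 CPM (L) and 1185 CPM (R) in Sham, 1785 (moderate) and 1944 (severe) in MCAO contra, and 1944 (moderate) and 3197 (severe) in MCAO ipsi (0.98 ± 0.20, adjusted p = 0.00235; adjusted p = 0.0607 after subtraction). Atp1b2, a sodium pump subunit, rose by 1.36, Slc7a11, the cystine and glutamate exchanger, by 1.03, Maob, a monoamine oxidase, by 0.83 and Megf10, an engulfment receptor, by 1.14. After subtraction their adjusted p were 0.0668, 0.147, 0.315 and 0.161. The same held for Notch1 (1.48; 0.126), Tcf7l1 (1.23; 0.144), Ncan, a proteoglycan (2.71; 0.0654), Slc14a1, a urea transporter (1.34; 0.107), and Pfkfb3, an activator of glycolysis (1.33; 0.136). Calls as summed were lost without Sham L for Slc7a11 (0.0693), Maob (0.348), Notch1 (0.268), Tcf7l1 (0.0567), Ncan (0.131), Megf10 (0.302), Slc14a1 (0.251) and Pfkfb3 (0.268), without Sham R for Slc4a4 (0.1), Atp1b2 (0.116), Slc7a11 (0.236), Maob (0.208), Notch1 (0.103), Tcf7l1 (0.236), Ncan (0.103), Megf10 (0.0714), Slc14a1 (0.0604) and Pfkfb3 (0.223), without mMCAO contra for Maob (0.067), without sMCAO contra for Maob (0.0696), without mMCAO ipsi for Maob (0.0504) and Ncan (0.0691), and without sMCAO ipsi for Slc4a4 (change 0.59, under 0.6 in size) and Pfkfb3 (0.174) (adjusted p unless a change is given). Atp1b2 (0.0619), Slc7a11 (0.228), Maob (0.476), Notch1 (0.165), Tcf7l1 (0.2), Ncan (0.0955), Megf10 (0.172), Slc14a1 (0.142) and Pfkfb3 (0.255) were not called by DESeq2. Maob (0.073), Megf10 (0.053) and Pfkfb3 (0.172) lost their calls with reactive genes at 0 UMIs. Maob (0.0517), Notch1 (0.0545) and Pfkfb3 (0.0852) lost their calls without nuclei of 3 or more cell cycle UMIs. Maob (0.0762), Notch1 (0.0596) and Pfkfb3 (0.211) lost their calls without nuclei of 3 or more UMIs of other types. Slc4a4 (0.0983), Atp1b2 (0.1), Notch1 (0.0838), Tcf7l1 (0.0894), Ncan (0.0847), Megf10 (0.107), Slc14a1 (0.0568) and Pfkfb3 (0.173) lost their calls in members of at most 1500 UMIs.

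Lists of the resting functions gave few calls. Of 13 tested genes of glutamate uptake and amino acid exchange, 1 was called higher and 0 lower (median 0.23). Of 10 genes of GABA uptake and receptors 1 was higher and 0 lower (median 0.24), and of 18 genes of ion and water balance 2 were higher and 0 lower (median -0.10). After subtraction 0 genes of these lists were called higher, and 1 gene of ion and water balance was called lower. Glul, which turns glutamate into glutamine, was at 314 CPM (L) and 345 CPM (R) in Sham, 322 (moderate) and 340.3 (severe) in MCAO contra, and 292 (moderate) and 435 (severe) in MCAO ipsi. Kcnj10, the potassium channel Kir4.1, was at 135 CPM (L) and 69.0 CPM (R) in Sham, 107 (moderate) and 121 (severe) in MCAO contra, and 64.6 (moderate) and 87.6 (severe) in MCAO ipsi, Aldh1l1, a folate enzyme widely used as an astrocyte marker, had a change of -0.45, and none of the 3 was called (adjusted p = 0.841, 0.528 and 0.511). As summed, at 1 to 2 calls of 10 to 18 genes, these lists lay near the 8.75% of all genes.

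**Figure D4:**
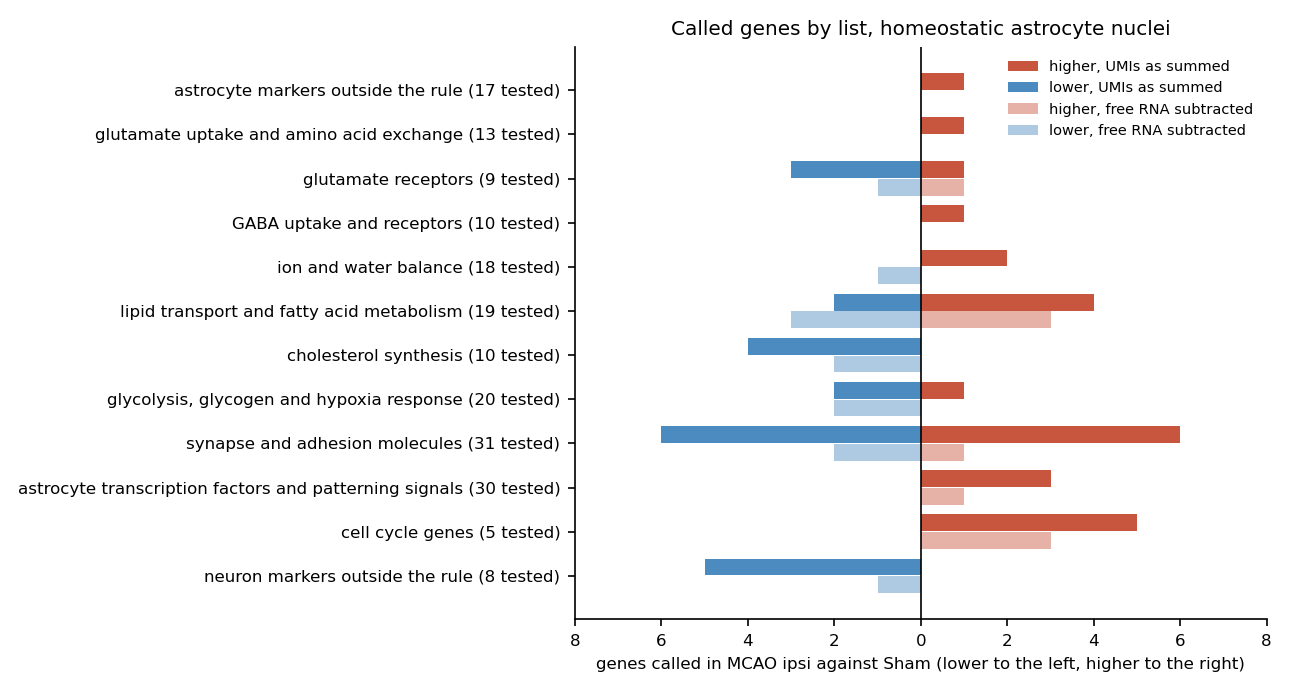
Number of genes called in MCAO ipsi against Sham (x axis, lower to the left, higher to the right) for 12 gene lists, with the number tested in brackets; full colours are UMIs as summed and pale colours free RNA subtracted. Cholesterol synthesis (4 lower, 0 higher), cell cycle genes (5 higher, 0 lower) and neuron markers (5 lower, 0 higher) have calls in 1 direction. The filter on low counts largely fixed it for 4 of the 5 cell cycle genes, the cholesterol gene Sc5d and the neuron marker Camk2a. After subtraction 2, 3 and 1 genes of these lists are called, but the subtraction was itself set on neuron markers.

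Mertk, Col11a2 and Bend5 were among the genes lower in MCAO ipsi members with and without subtraction. Mertk, a receptor with which astrocytes engulf synapses and debris, was at 1005 CPM (L) and 794 CPM (R) in Sham, 1008 (moderate) and 1067 (severe) in MCAO contra, and 533 (moderate) and 463 (severe) in MCAO ipsi (-0.87 ± 0.20, adjusted p = 0.00556). It fell by 1.17 after subtraction (adjusted p = 0.00596). Col11a2, a fibrillar collagen chain, was at 827 CPM (L) and 1001 CPM (R) in Sham, 1012 (moderate) and 738 (severe) in MCAO contra, and 214 (moderate) and 228 (severe) in MCAO ipsi (-2.04 ± 0.22, adjusted p = 3.35e-06). Bend5, a transcriptional regulator, was at 706 CPM (L) and 771 CPM (R) in Sham, 278 (moderate) and 409 (severe) in MCAO contra, and 169.9 (moderate) and 144 (severe) in MCAO ipsi (-2.23 ± 0.24, adjusted p = 2.5e-06). Both MCAO ipsi libraries lay below both Sham libraries for all 3 genes, as for 23.3% of all genes tested, and for Bend5 the MCAO contra libraries lay between them. A call was lost without Sham L for Mertk (0.272), and Col11a2 and Bend5 kept theirs without each library. Mertk (0.0763) was not called by DESeq2.

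Cadm1, a synaptic adhesion molecule, was at 2573 CPM (L) and 2450.3 CPM (R) in Sham, 2364 (moderate) and 2382 (severe) in MCAO contra, and 1702 (moderate) and 1269 (severe) in MCAO ipsi (-0.77 ± 0.17, adjusted p = 0.00517). Prex2, an exchange factor for Rac, was at 3400.2 CPM (L) and 3578 CPM (R) in Sham, 2941 (moderate) and 2480.0 (severe) in MCAO contra, and 2449.7 (moderate) and 1648 (severe) in MCAO ipsi (-0.77 ± 0.18, adjusted p = 0.00669). Gria2, an AMPA receptor subunit, was at 1489.8 CPM (L) and 1265 CPM (R) in Sham, 1012 (moderate) and 899.7 (severe) in MCAO contra, and 921 (moderate) and 722 (severe) in MCAO ipsi (-0.76 ± 0.19, adjusted p = 0.012), and was the only other gene of the 9 tested glutamate receptors besides Grm5 to be called after subtraction. Of 31 tested synapse and adhesion genes 6 were called higher and 6 lower as summed (median -0.13), where 8.75% of all genes were called, and of 29 tested after subtraction 1 and 2 (3.17% of all genes), namely Gpc6 upward and Mertk and Cadm1 downward. Leaving out single libraries, calls were lost without Sham L for Cadm1 (0.147), Prex2 (0.111) and Gria2 (0.29), without Sham R for Cadm1 (0.0579) and Prex2 (0.105), and without sMCAO ipsi for Cadm1 (change -0.56, under 0.6 in size), Prex2 (change -0.50, under 0.6 in size) and Gria2 (change -0.59, under 0.6 in size) (adjusted p unless a change is given). Cadm1 (0.074), Prex2 (0.092) and Gria2 (0.133) were not called by DESeq2. Gria2 (0.0533) lost its call without nuclei of 3 or more cell cycle UMIs. Cadm1 (0.0552), Prex2 (0.0549) and Gria2 (0.0785) lost their calls in members of at most 1500 UMIs.

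Vegfa and Hif3a, genes of the response to low oxygen, were called lower. Vegfa, the vascular growth factor that hypoxia induces, was at 321 CPM (L) and 357 CPM (R) in Sham, 285 (moderate) and 299.9 (severe) in MCAO contra, and 119 (moderate) and 182 (severe) in MCAO ipsi (-1.17 ± 0.27, adjusted p = 0.00587). Hif3a, an inhibitory member of the hypoxia-inducible factors, was at 114 CPM (L) and 184 CPM (R) in Sham, 63.6 (moderate) and 63.4 (severe) in MCAO contra, and 51.0 (moderate) and 49.1 (severe) in MCAO ipsi (-1.51 ± 0.39, adjusted p = 0.0134). Of 20 tested genes of glycolysis, glycogen and hypoxia, 1 was called higher (Pfkfb3) and 2 lower (Vegfa and Hif3a), with a median change of 0.13, where 3.82% of all genes were called higher and 4.93% lower, and after subtraction 0 were higher and the same 2 were lower. Tef, a transcription factor of the clock, was the 1 gene of 17 tested glucocorticoid and clock genes called (-0.87 ± 0.27, adjusted p = 0.0401), near the 4.93% of all genes called lower. Vegfa, Hif3a and Tef missed the threshold without Sham L for Vegfa (0.0889) and Tef (0.316), without Sham R for Vegfa (0.0712), Hif3a (0.222) and Tef (0.173), without sMCAO contra for Tef (0.0698), without mMCAO ipsi for Tef (0.0581), and without sMCAO ipsi for Tef (0.0636). Vegfa (0.0895), Hif3a (0.172) and Tef (0.405) were not called by DESeq2. Tef (0.114) lost its call with reactive genes at 0 UMIs. Tef (0.116) lost its call without nuclei of 3 or more cell cycle UMIs. Hif3a (0.0535) and Tef (0.102) lost their calls without nuclei of 3 or more UMIs of other types. Hif3a (0.0552) and Tef (0.404) lost their calls in members of at most 1500 UMIs.

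All 10 tested genes of cholesterol synthesis had a change below 0, with a median of -1.33 beside 0.02 over all genes, and 4 of the 10 were called lower, as were 4.93% of all genes. Hmgcs1, which makes the precursor HMG-CoA, was at 135 CPM (L) and 161 CPM (R) in Sham, 167 (moderate) and 57.7 (severe) in MCAO contra, and 47.6 (moderate) and 49.1 (severe) in MCAO ipsi (-1.59 ± 0.45, adjusted p = 0.0253). Fdft1, squalene synthase, was at 292 CPM (L) and 230.1 CPM (R) in Sham, 181 (moderate) and 75.0 (severe) in MCAO contra, and 88.3 (moderate) and 119 (severe) in MCAO ipsi (-1.36 ± 0.34, adjusted p = 0.0122). Cyp51, the lanosterol demethylase, was at 128 CPM (L) and 80.5 CPM (R) in Sham, 100.5 (moderate) and 28.8 (severe) in MCAO contra, and 23.8 (moderate) and 35.1 (severe) in MCAO ipsi (-1.88 ± 0.53, adjusted p = 0.0256). Sc5d, a late desaturase, was at 64.2 CPM (L) and 57.5 CPM (R) in Sham, 43.5 (moderate) and 28.8 (severe) in MCAO contra, and 13.6 (moderate) and 14.0 (severe) in MCAO ipsi (-2.12 ± 0.67, adjusted p = 0.0481). Sc5d reached the filter limit of 43.6 CPM only in the Sham libraries, so its direction was largely fixed by it. The 4 calls were lost without Sham L for Fdft1 (0.309), Hmgcs1 (0.19), Cyp51 (0.463) and Sc5d (0.387), without Sham R for Hmgcs1 (0.176), Cyp51 (0.0602) and Sc5d (0.142), without mMCAO contra for Sc5d (0.244), without sMCAO contra for Sc5d (0.0565), without mMCAO ipsi for Sc5d (0.177), and without sMCAO ipsi for Sc5d (0.218) (adjusted p). Fdft1 (0.14), Hmgcs1 (0.17), Cyp51 (0.208) and Sc5d (0.281) were not called by DESeq2. Hmgcs1 (0.0754), Cyp51 (0.0838) and Sc5d (0.114) lost their calls with reactive genes at 0 UMIs. Hmgcs1 (0.0836), Cyp51 (0.083) and Sc5d (0.0662) lost their calls without nuclei of 3 or more cell cycle UMIs. Hmgcs1 (0.051), Cyp51 (0.06) and Sc5d (0.0925) lost their calls without nuclei of 3 or more UMIs of other types. Fdft1 (0.0802), Hmgcs1 (0.524) and Cyp51 (0.0802) lost their calls in members of at most 1500 UMIs. For each of the 4 genes sMCAO contra lay below mMCAO contra and both Sham libraries.

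After subtraction the pathway's median was -1.52 and 2 of 9 genes were called, Fdft1 (adjusted p = 0.025) and Hmgcs1 (0.0494), while Cyp51 (0.0519) and Sc5d (0.102) were not. Acsl3, which activates fatty acids, was at 321 CPM (L) and 460.1 CPM (R) in Sham, 258 (moderate) and 294 (severe) in MCAO contra, and 207 (moderate) and 172 (severe) in MCAO ipsi (-1.01 ± 0.25, adjusted p = 0.012). Acly and Acss2, which supply acetyl-CoA and were picked after their values were seen, fell by 1.38 and 1.05 as summed (adjusted p = 0.0226 and 0.0184). Acsl3, Acly and Acss2 lost calls without Sham L for Acly (0.367) and Acss2 (0.238), without Sham R for Acsl3 (0.222), Acly (0.0726) and Acss2 (0.104), without mMCAO ipsi for Acly (0.1), and without sMCAO ipsi for Acss2 (0.0573). Acsl3 (0.148), Acly (0.22) and Acss2 (0.243) were not called by DESeq2. Acsl3 (0.0728) and Acly (0.0974) lost their calls with reactive genes at 0 UMIs. Acly (0.0781) and Acss2 (0.052) lost their calls without nuclei of 3 or more cell cycle UMIs. Acsl3 (0.067), Acly (0.0633) and Acss2 (0.114) lost their calls without nuclei of 3 or more UMIs of other types. Acsl3 (0.174), Acly (0.261) and Acss2 (0.524) lost their calls in members of at most 1500 UMIs. In those shallow members the change of Acss2 was -0.50 and that of Hmgcs1 -0.76.

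The largest falls as summed belonged mostly to genes with more RNA in neuron nuclei than in members. Galntl6 (-3.45), Ppp1r16b (-3.27), Kcnip4 (-3.26), Car10 (-3.94), Zfp804a (-3.54), Fam135b (-4.17), Pacsin1 (-4.41), Kcnh5 (-3.54), Cntnap5b (-3.40) and Aacs (-3.76) were the 10 lowest under the naming rule, and all but Ppp1r16b and Aacs were higher in the neuron nuclei of each library than in its members. Kcnip4, a potassium channel partner of neurons, was at 3051 CPM (L) and 2991 CPM (R) in Sham, 1045 (moderate) and 1142 (severe) in MCAO contra, and 519.9 (moderate) and 109 (severe) in MCAO ipsi, against 9401 to 12500.0 CPM in neuron nuclei. Of the 8 neuron markers tested, 5 were called lower (Rbfox1, Grin1, Camk2a, Kcnip4 and Cntnap2; median -2.36) and 0 higher, where 4.93% of all genes were called lower. Camk2a, and Fam135b among the 10 genes above, reached the filter limit of 43.6 CPM only in the Sham libraries. Their direction was therefore largely fixed by the filter. After subtraction 2 of the 8 could be tested, and Cntnap2 was called lower, while the median of the 2 was 2.34. The subtraction was scaled until these markers reached 0, so their values after it show nothing about the members. Nrg3 and Csmd1, called lower as summed (-1.16 and -1.14), had changes of 0.17 and 0.63 after subtraction, and Gria4 and Itpr1 lost their calls or could not be tested. Of the 10 genes, Ppp1r16b, a phosphatase subunit, was called in both fits (85.5 CPM (L) and 173 CPM (R) in Sham, 67.0 (moderate) and 86.5 (severe) in MCAO contra, and 13.6 (moderate) and 10.5 (severe) in MCAO ipsi). Among the genes named here calls were lost without Sham L for Grin1 (0.203), Camk2a (0.39), Gria4 (0.113), Itpr1 (0.272), Zfp804a (0.079), Kcnh5 (0.226) and Aacs (0.0703), without Sham R for Itpr1 (0.164), Fam135b (0.0952), Pacsin1 (0.107) and Aacs (0.262), without mMCAO contra for Camk2a (0.107), Kcnh5 (0.067) and Aacs (0.112), without sMCAO contra for Pacsin1 (0.0632) and Aacs (0.0507), without mMCAO ipsi for Aacs (0.108), and without sMCAO ipsi for Camk2a (0.1), Itpr1 (0.141), Kcnh5 (0.0977) and Aacs (0.15) (adjusted p unless a change is given). Camk2a (0.103), Cntnap2 (0.179), Itpr1 (0.322), Pacsin1 (0.121) and Aacs (0.074) were not called by DESeq2. Kcnh5 (0.0513) lost its call with reactive genes at 0 UMIs. Grin1 (0.0667) and Itpr1 (0.262) lost their calls in members of at most 1500 UMIs.

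UMIs of cell cycle genes came mostly from the members of the infarcted hemisphere. The 17 genes of the list gave 9 and 4 UMIs in Sham, 28 and 14 in MCAO contra, and 189 in each MCAO ipsi library. Top2a, the topoisomerase that untangles replicated DNA, was at 0 CPM (L) and 0 CPM (R) in Sham, 6.70 (moderate) and 0 (severe) in MCAO contra, and 88.3 (moderate) and 98.1 (severe) in MCAO ipsi. Cenpf, a kinetochore protein, was at 0, 0, 0, 0, 81.5 and 80.6 CPM in the same order, and Mki67, the proliferation antigen Ki-67, at 0, 0, 3.35, 0, 91.7 and 59.6 CPM. Ezh2, a histone methyltransferase of dividing progenitors, was at 35.6 CPM (L) and 46.0 CPM (R) in Sham, 33.5 (moderate) and 40.4 (severe) in MCAO contra, and 139 (moderate) and 161 (severe) in MCAO ipsi.

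Of the 17 genes of the list, 5 passed the filter on low counts (Top2a, Cenpf, Mki67, Kif11 and Ezh2), and these were called higher. Top2a, Cenpf, Mki67 and Kif11 were at 0 UMIs in Sham and passed the filter through MCAO ipsi, so the filter largely fixed their direction and the count describes these genes, not the list. Ezh2 rose by 1.89 ± 0.43 on the log2 scale (adjusted p = 0.00507). For the 4 genes at 0 UMIs in both Sham libraries a fold is a lower bound, set against 3 UMIs over the Sham group (13.2 CPM). Top2a was at least 7.06-fold higher (adjusted p = 0.000686), Cenpf at least 6.14-fold (adjusted p = 0.00173), Mki67 at least 5.75-fold (adjusted p = 0.00289) and Kif11 at least 3.79-fold (adjusted p = 0.0226). Top2a, Cenpf and Mki67 were called after subtraction. Except for Top2a, calls of the list were lost without Sham L for Cenpf (0.0671), Mki67 (0.0957), Ezh2 (0.193) and Kif11 (0.268), without Sham R for Kif11 (0.119), and without mMCAO ipsi for Mki67 (0.133). Ezh2 (0.158) and Kif11 (0.132) were not called by DESeq2. Top2a (0.051) and Ezh2 (0.132) lost their calls without nuclei of 3 or more UMIs of other types.

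The naming rule, which orders genes by the fitted change, also named the mitotic genes Ect2, Kif18a, Hmmr, Nusap1 and Kif14, the kinase gene Nek11 and Serpinh1. These 7 genes were at 0 UMIs in both Sham libraries and passed the filter through MCAO ipsi, so their direction was largely fixed by it, and their fitted order depends on the prior count of the fit. Ect2 and Kif18a were each at least 6.66-fold higher, Hmmr at least 5.75-fold, Nusap1 at least 4.83-fold, Nek11 at least 4.31-fold and Kif14 at least 4.05-fold. Serpinh1, a chaperone of collagen and not a cell cycle gene, was at least 4.18-fold higher than Sham but was at 0, 0, 33.5, 23.1, 54.4 and 56.1 CPM in the 6 libraries in order. After subtraction Ect2, Kif18a and Hmmr were called, and Nusap1 (adjusted p = 0.0673), Nek11 (0.0631), Kif14 (0.0989) and Serpinh1 (0.0518) were not. These calls were lost without Sham L for Ect2 (0.0567), Hmmr (0.0727), Nusap1 (0.147), Kif14 (0.226), Nek11 (0.134) and Serpinh1 (0.138), without Sham R for Nusap1 (0.0507) and Kif14 (0.0928), without mMCAO contra for Kif14 (0.0638), without mMCAO ipsi for Nusap1 (0.15) and Kif14 (0.133), and without sMCAO ipsi for Kif18a (0.0547), Ect2 (0.0786), Hmmr (0.0931) and Nusap1 (0.128). Nusap1 (0.0751), Kif14 (0.118), Nek11 (0.0715) and Serpinh1 (0.0727) were not called by DESeq2.

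Few nuclei carried this signal. At least 3 cell cycle UMIs were held by 24 of 226 members in mMCAO ipsi (10.6%, 6.92 to 15.4%) and by 11 of 140 in sMCAO ipsi (7.86%, 3.99 to 13.6%), by 1 of 280 in mMCAO contra and by 0 members of Sham L, Sham R and sMCAO contra. These 24 and 11 nuclei held 75.7% and 87.3% of the list's UMIs in their library. They were deep, with medians of 1889 and 4524 UMIs, Gfap was detected in 19 of the 24 and 10 of the 11, and 2 and 3 of them held 3 or more UMIs of myeloid markers. In neuron nuclei the share with 3 or more cell cycle UMIs was 0.156, 0.0803, 0.220, 0.306, 1.62 and 2.59% in the order of libraries, at greater depth.

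Among the astrocyte nuclei that the rule left out of MCAO ipsi, 18 of 84 in mMCAO and 82 of 260 in sMCAO held 3 or more cell cycle UMIs. With members thinned to 500 UMIs the share was 0.885% in mMCAO ipsi and 1.43% in sMCAO ipsi and 0 in the other 4 libraries, so at equal depth few such nuclei were left to compare. Without the members that held 3 or more cell cycle UMIs, 294 genes were called in MCAO ipsi against Sham in place of 447.

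**Figure D5:**
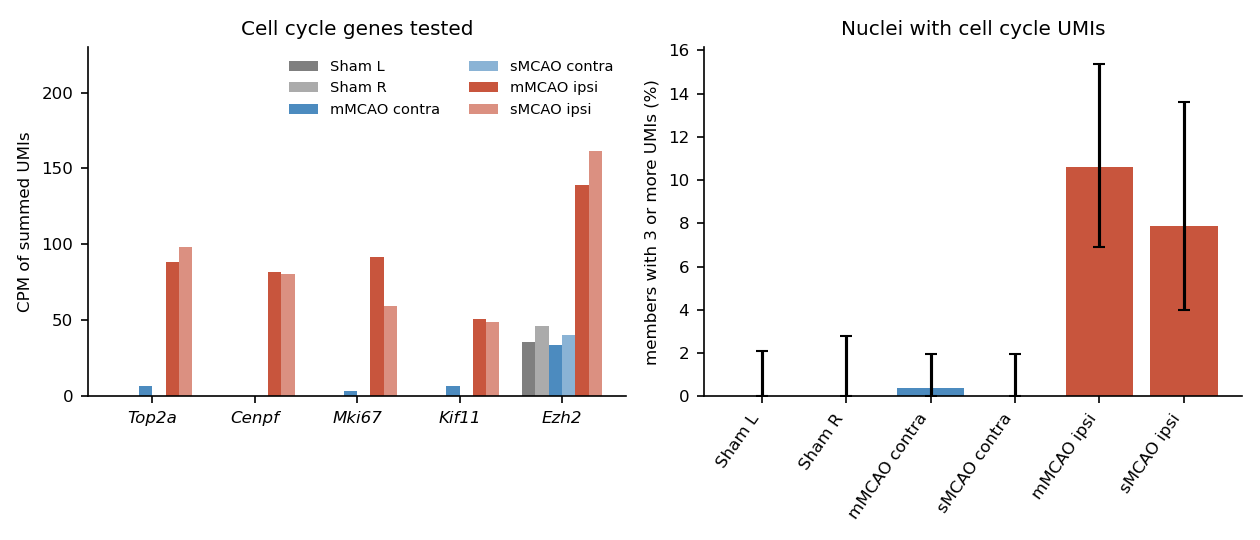
Left, level of 5 cell cycle genes in the summed UMIs of the members (y axis, CPM) in each of the 6 libraries; right, percent of members with 3 or more UMIs of the 17 cell cycle genes, with exact 95% binomial intervals. Only Ezh2 stands above 7 CPM outside MCAO ipsi, and the share of nuclei reaches 10.6% in mMCAO ipsi and 7.86% in sMCAO ipsi.

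Promoters of cell cycle and cholesterol genes often hold a short motif, and 4 are shown for genes whose values by library are given above. They are the 250 bases before the RefSeq start site in build GRCr8 (the counts use mRatBN7.2), read on the gene's strand. Capitals mark the CCAAT box, searched as CCAAT on both strands and therefore seen as CCAAT or ATTGG.
Top2a (chr10:84473094-84473343, minus strand): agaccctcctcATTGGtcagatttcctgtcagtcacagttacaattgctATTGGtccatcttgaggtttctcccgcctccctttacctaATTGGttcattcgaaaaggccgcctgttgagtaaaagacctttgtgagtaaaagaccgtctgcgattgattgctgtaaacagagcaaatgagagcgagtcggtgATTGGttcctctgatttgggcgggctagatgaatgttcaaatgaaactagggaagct
Mki67 (chr1:199952594-199952843, minus strand): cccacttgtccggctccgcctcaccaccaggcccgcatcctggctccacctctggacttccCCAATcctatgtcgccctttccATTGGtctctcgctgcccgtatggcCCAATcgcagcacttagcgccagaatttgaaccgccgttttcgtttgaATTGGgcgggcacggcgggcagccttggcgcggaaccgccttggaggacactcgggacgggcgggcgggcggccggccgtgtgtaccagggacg
Cenpf (chr13:103760887-103761136, minus strand): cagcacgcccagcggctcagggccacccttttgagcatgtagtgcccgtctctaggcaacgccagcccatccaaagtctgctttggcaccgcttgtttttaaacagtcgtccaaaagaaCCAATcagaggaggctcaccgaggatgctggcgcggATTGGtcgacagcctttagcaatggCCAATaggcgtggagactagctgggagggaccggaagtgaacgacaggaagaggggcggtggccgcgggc
Hmgcs1 (chr2:53382054-53382303, plus strand): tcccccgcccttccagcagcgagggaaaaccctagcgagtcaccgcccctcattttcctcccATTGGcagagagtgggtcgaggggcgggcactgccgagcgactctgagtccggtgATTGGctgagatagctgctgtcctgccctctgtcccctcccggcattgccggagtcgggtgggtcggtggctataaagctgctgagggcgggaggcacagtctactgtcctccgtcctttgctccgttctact

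Top2a and Mki67 hold 4 matches each, Cenpf 3 and Hmgcs1 2. Of the 14 cell cycle genes with a promoter in the table, 12 held at least 1 match (85.7%) and 9 at least 2 (64.3%). Of the 14 cholesterol genes with one, 12 held at least 1 (85.7%) and 8 at least 2 (57.1%), and Cyp51 held 0. Over all 27456 genes the shares were 37.7% and 11.5%. The searched windows of all genes run from 250 bases before to 50 after the start site. Searched in the same windows, the STAT motif TTCNNNGAA (8.68% of all promoters), the heat shock element (0.736%) and the NFI motif (0.0437%) had 0 matches in both lists. AP-1 (TGANTCA, 7.33% of all) had 0 and 2 and the E-box (CACGTG, 6.65%) 1 and 2, in cell cycle and cholesterol genes respectively. A match is a run of letters, not a bound site.

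Markers of other cell types were low and moved with some of these results. Summed oligodendrocyte markers were at 527, 989, 378, 865, 296 and 564 CPM in the order of libraries, with Mbp the most abundant in mMCAO contra. Summed OPC markers were at 128, 667, 181, 196, 272 and 266 CPM. Myeloid markers were at 135, 173, 268, 225, 350 and 340 CPM, led by the kinase gene Lyn. Of the 18 myeloid markers 6, 8, 14, 11, 12 and 15 were found, with C1qb at 0 in the Sham and the MCAO ipsi libraries. A myeloid UMI was held by 10.2% and 8.46% of the Sham members and by 27.4% and 36.4% of the MCAO ipsi members, whose nuclei were deeper. Fibroblast markers were at 28.5, 57.5, 97.1, 86.5, 91.7 and 105 CPM. Endothelial and mural markers were at 199.6, 184, 141, 213, 221 and 326 CPM, and ependymal markers at 328, 403, 452, 386, 476 and 782 CPM, led by Rfx3, which neuron nuclei hold as well.

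Within these lists 1 mural gene and 1 ependymal gene were called in MCAO ipsi against Sham, where 8.75% of all genes were called. Both passed the filter on low counts through MCAO ipsi alone, so their direction was largely fixed by it. Myh11, a smooth muscle myosin, was at 7.13 CPM (L) and 11.5 CPM (R) in Sham, 6.70 (moderate) and 11.5 (severe) in MCAO contra, and 91.7 (moderate) and 182 (severe) in MCAO ipsi (15.5-fold the Sham level, counting interval 4.15 to 130.1; adjusted p = 0.000655), and 15 of its 52 UMIs in sMCAO ipsi lay in 1 nucleus, while Acta2, Rgs5 and Kcnj8 were at 0 in both MCAO ipsi libraries (Acta2 and Kcnj8 in both Sham libraries as well). Dnah9, a dynein of motile cilia, was at 28.5 CPM (L) and 23.0 CPM (R) in Sham, 20.1 (moderate) and 28.8 (severe) in MCAO contra, and 88.3 (moderate) and 249 (severe) in MCAO ipsi (2.63 ± 0.59, adjusted p = 0.00496), with 12 of 71 UMIs in 1 nucleus. Dnah11, another dynein of the list, was at 14.3, 0, 70.3, 17.3, 34.0 and 80.6 CPM and Rfx3 at 278, 379.6, 328, 340.3, 353 and 449 CPM in the order of libraries, while Tmem212 and Ccdc153 were at 0 in both the Sham and the MCAO ipsi libraries. The selection held mitochondrial UMIs to at most 5% of a nucleus, so calls of mitochondrial genes describe nuclei under that limit and support nothing further. Of 13 tested genes of the mitochondrial genome 11 were called higher and 0 lower as summed, where 3.82% of all genes were called higher, and 9 were called higher in both fits. Mt-nd4l, counted in both numbers, passed the filter through MCAO ipsi alone, so its direction was largely fixed by it. Mt-cyb, a subunit of respiratory complex III, was at 71.3 CPM (L) and 138 CPM (R) in Sham, 104 (moderate) and 92.3 (severe) in MCAO contra, and 357 (moderate) and 634 (severe) in MCAO ipsi (2.32 ± 0.35, adjusted p = 7.93e-05). Calls of Myh11 and Dnah9 were lost without Sham L for Myh11 (0.0693) and Dnah9 (0.138), without Sham R for Dnah9 (0.0761), and without sMCAO ipsi for Myh11 (0.051) and Dnah9 (0.155). Dnah9 (0.0558) was not called by DESeq2. Myh11 (0.0749) lost its call without nuclei of 3 or more UMIs of other types. The part of other cells and of RNA quality in these calls was not tested.

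MCAO ipsi against MCAO contra compares the hemispheres of the same rats. As summed, 216 of 5111 genes were called (4.23%), 119 higher (2.33%) and 97 lower (1.9%), and with the rat pool as a replicate block 351 were called. Of the genes called higher as summed, 41 passed the filter on low counts through MCAO ipsi alone, so their direction was largely fixed. Of those called lower, 0 passed it through MCAO contra alone. After subtraction 86 were called (1.88%), 62 higher and 24 lower, and 136 with the block. The change of 2 of the 97 genes called lower turned its sign. The neuron markers differed here too, with 3403 and 3529.6 CPM against 2198 and 687.

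The genes described above had these values here. Grm5 differed by 1.33 ± 0.17 (adjusted p = 6.57e-05), Clu by 1.32 ± 0.20 (0.000331) and Chl1 by 2.20 ± 0.24 (1.41e-05). Col11a2 differed by -2.01 ± 0.21 on the log2 scale (1.34e-05), Mertk by -1.06 ± 0.19 (0.00118), Kcnip1, a potassium channel partner, by -1.51 (0.000331), and Vegfa by -0.96 (0.0236). Both MCAO ipsi libraries lay above both MCAO contra libraries for the first 3 (23.3% of all genes did). Each of these 7 genes was called after subtraction as well. Vegfa missed the threshold without mMCAO contra for Vegfa (0.131), without sMCAO contra for Vegfa (0.138), and without mMCAO ipsi for Vegfa (0.0883) (adjusted p). Vegfa (0.458) was not called by DESeq2. Vegfa (0.0715) lost its call with reactive genes at 0 UMIs. Vegfa (0.0501) lost its call without nuclei of 3 or more UMIs of other types. Vegfa (0.114) lost its call in members of at most 1500 UMIs. Both comparisons use the MCAO ipsi libraries, so the second is not a separate support of the first. Apoe (0.72; adjusted p = 0.0649), Ptn (0.103), Npas3 (0.558) and the 10 cholesterol genes (median -0.86, 0 called) did not pass the test here.

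The same 5 of the 17 cell cycle genes were tested and called higher, 4 of them after subtraction. Top2a, Cenpf, Mki67 and Kif11 had 0 to 2 UMIs in each MCAO contra library, so their direction was again largely fixed by the filter. Against 3 UMIs over the MCAO contra group (6.36 CPM), Cenpf was at least 12.8-fold higher, Ect2 at least 13.8-fold, Knl1, a kinetochore scaffold, at least 12.5-fold, Nusap1 at least 10.0-fold and Aspg, an asparaginase listed among pan-reactive genes, at least 7.60-fold. Ect2, Knl1, Nusap1 and Aspg also passed the filter through MCAO ipsi alone, so their direction was largely fixed by it. Adam11, a membrane protein of the disintegrin family, was at 164 CPM (L) and 149.6 CPM (R) in Sham, 178 (moderate) and 127 (severe) in MCAO contra, and 27.2 (moderate) and 38.6 (severe) in MCAO ipsi (-2.24 ± 0.36, adjusted p = 0.000451). Pex5l, a partner of pacemaker channels, was at 278 CPM (L) and 253 CPM (R) in Sham, 164 (moderate) and 317 (severe) in MCAO contra, and 51.0 (moderate) and 35.1 (severe) in MCAO ipsi (-2.41 ± 0.35, adjusted p = 0.000237). Prodh1, a proline dehydrogenase, was at 492 CPM (L) and 460.1 CPM (R) in Sham, 579 (moderate) and 449.9 (severe) in MCAO contra, and 183 (moderate) and 249 (severe) in MCAO ipsi (-1.28 ± 0.22, adjusted p = 0.000947). Of the cell cycle genes, calls were lost without mMCAO contra for Nusap1 (0.125), without mMCAO ipsi for Nusap1 (0.063) and Mki67 (0.112), and without sMCAO ipsi for Nusap1 (0.0514) (adjusted p). Aspg (0.0823), Top2a (0.0595), Mki67 (0.112) and Ezh2 (0.109) were not called by DESeq2. Adam11 (0.0515) lost its call in members of at most 1500 UMIs. Aspg was not called after subtraction (adjusted p = 0.0558). In members of at most 1500 UMIs the change of Grm5 was 0.83 (adjusted p = 0.246) and that of Vegfa -1.03 (0.114).

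MCAO contra against Sham asks whether the members opposite the lesion differed from controls. Of 5111 genes 15 were called (0.293%), 0 higher and 15 lower (0.293%). Before adjustment, 222 genes passed a p of 0.05 upward and 289 downward. DESeq2 called 1 gene. The named ones were higher in the neuron nuclei of each library than in its members, and both MCAO contra libraries lay below both Sham libraries, as for 20.8% of all genes. Neuron nuclei held much of Chrm3 (553 to 824 CPM) and Galntl6 (1871 to 2218 CPM). Kcnip4 changed by -1.47 (adjusted p = 0.0426), Galntl6 by -1.50 (0.0291), Rbfox1 by -1.22 (0.0426), Chrm3, a muscarinic receptor, by -1.90 (0.0426), Arpp21 by -1.54 (0.043), Lrrc7 by -1.38 (0.0291) and Zfp804b by -1.73 (0.0291). After subtraction 0 genes were called, 5 of the 15 losing their call and 10 no longer being tested. The count was also 0 without Sham L, without Sham R, without mMCAO contra and without sMCAO contra, and 126 and 124 without mMCAO ipsi and without sMCAO ipsi.

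Among the genes described above, chosen here after their values were seen, MCAO contra lay between the other groups without a call for Clu, Apoe, Cebpd, Itpkb, Pdgfc and Ptn, whose 2 MCAO contra libraries lay above both Sham libraries (as for 22% of all genes) and below both MCAO ipsi libraries. Itpkb was at 49.9 CPM (L) and 57.5 CPM (R) in Sham, 131 (moderate) and 138 (severe) in MCAO contra, and 370.4 (moderate) and 322 (severe) in MCAO ipsi, and Pdgfc was at 85.5 CPM (L) and 104 CPM (R) in Sham, 234 (moderate) and 149.9 (severe) in MCAO contra, and 547 (moderate) and 456 (severe) in MCAO ipsi. Their changes in MCAO contra against Sham were 1.33 (adjusted p = 0.163) and 1.10 (0.214). Npas3, in contrast, was as high in MCAO contra as in mMCAO ipsi (0.64 against Sham; adjusted p = 0.0741).

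To see which changes differed from those of another glial type in the same libraries, the interaction with oligodendrocyte precursor (OPC) nuclei was tested. An OPC nucleus held at least 5 UMIs, and 0.6% of its UMIs, of Pdgfra, Cspg4, Vcan and Tnr, and at most 4 of the astrocyte genes. There were 37, 16, 58, 42, 89 and 94 OPC nuclei in the order of libraries. Of 3803 genes, 81 differed in their change of MCAO ipsi against Sham (2.13%), 8 with a larger and 73 with a smaller value in the members. That fit held each library as a block, and without the block 54 genes differed, 4 and 50. After subtraction from both cell types 16 of 3196 genes differed, 5 and 11. Of the 8, Grm3, a glutamate receptor that lowers cyclic AMP, had a change of 0.37 in the members and of -4.08 in OPC nuclei, each from a fit within that cell type. The fit over both types put the difference at 4.39 (adjusted p = 7.88e-07), and 8.56 after subtraction (adjusted p = 0.000186). In the members Grm3 was at 1625 CPM (L) and 2082 CPM (R) in Sham, 2130.1 (moderate) and 2318 (severe) in MCAO contra, and 2558 (moderate) and 2233 (severe) in MCAO ipsi.

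Grm5, in the same family, changed by 1.57 in the members and -0.75 in OPC nuclei, with a difference of 2.16 in the fit over both types (adjusted p = 0.000581). It was not called after subtraction (adjusted p = 0.276). For Adgrv1 the difference was 4.97 (adjusted p = 0.0158; 0.0394 after subtraction). Clu, Mertk and Apoe did not pass the interaction test (adjusted p = 0.893, 0.792 and 0.653), and the 16 OPC nuclei of the smallest library limit what could be detected.

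Members also varied among themselves within a library. With each member thinned to 500 UMIs, the variance over the mean was taken for 1261 genes, and its median was 1.04, close to counting noise. The genes that varied most in every library were Luzp2 (at least 1.69), Gfap (at least 1.67), Lsamp, a cell adhesion molecule (at least 1.61), Sgcz (at least 1.54), Dcc, a netrin receptor (at least 1.47), and Gpc5 (at least 1.34). Gfap ranged up to 3.05 in Sham R, and Trpm3, a cation channel that differs between brain regions, reached 4.51 in mMCAO ipsi. Luzp2 and Lsamp themselves were not called in MCAO ipsi against Sham (adjusted p = 0.126 and 0.0751).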

How the data were processed

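Nuclei from pooled rat hemispheres were sequenced with a 10x 5' kit, and the authors deposited raw UMI counts per gene and nucleus, made with Cell Ranger 7.0.0 on mRatBN7.2 with intronic reads (30560 genes in the files). The study's own removal of free RNA and of doublets was not applied to these counts; instead the profile of all nuclei was subtracted, and nuclei with 3 or more UMIs of another type's markers were left out, as alternatives. Counts of members were summed per library and tested with edgeR 4.0.16 (R 4.3.3): TMM factors, filterByExpr, quasi-likelihood F test with 1 mean per group and Benjamini-Hochberg adjustment over 5121 genes. Rule genes that passed the filter stayed in the fit and the adjustment. They were left out of the counts of calls, which cover 5111 genes. Calls needed an adjusted p under 0.05 together with a log2 change of at least 0.6. Levels are counts scaled to a common total (CPM) and are not per length; levels of different genes were not compared. DESeq2 1.42.0 was an alternative. Genes named are the 10 largest changes each way with at least 20 UMIs and groups that do not overlap, up to 6 per list by p, and the most abundant; others were picked for their p after values were seen, and a few genes that the rule names are not reported here. The members and lists were chosen with earlier results of these data known. The hemispheres of MCAO rats came from the same animals, so the numbers pair them; over 5121 genes the deviations of mMCAO contra and mMCAO ipsi from their group means correlated with r = 0.0417. On simulated counts for MCAO ipsi against Sham over 5121 genes, 44.2% of 2-fold and 84.4% of 4-fold changes were recovered, with 5 false calls. The simulation gave all genes a dispersion of 0.02, which was set by hand and not estimated from these data. Changes were placed only in genes above a level limit, so recovery at low levels was not simulated. Each library gave 86929 to 298581 UMIs, where 3 UMIs are 34.5 to 10.0 CPM. Promoters came from RefSeq (GRCr8). Figures used matplotlib 3.10.9.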

Additional observations from a re-analysis of the deposited data

Results flagged for a closer look

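The change of MCAO ipsi against Sham differed between members and OPC nuclei for 14 of the named genes, by a test of the difference itself (edgeR, adjusted p under 0.05). Over all genes, 81 of 3803 differed (2.13%). Many named genes were chosen for the size or p of their change in these members, so the count of 14 shows no excess. The difference in log2 change, members minus OPC nuclei, was positive for Grm3 (4.39), Grm5 (2.16), Adgrv1 (4.97) and Nek11 (7.77). It was negative for Arpp21 (-3.27), Lrrc7 (-2.87), Chrm3 (-4.91), Csmd1 (-1.71), Gria4 (-2.16), Rbfox1 (-1.76), Ppp1r16b (-3.00), Zfp804a (-2.90), Nrg3 (-1.39) and Car10 (-3.13). Each of the negative genes but Ppp1r16b was higher in the neuron nuclei of each library than in its members, and Ppp1r16b was in each library but Sham R, and summed neuron markers fell in the members from 7592 CPM in Sham L to 687 CPM in sMCAO ipsi. With free RNA subtracted from both cell types, Grm3, Adgrv1, Arpp21, Lrrc7 and Ppp1r16b passed the test (adjusted p = 0.000186, 0.0394, 0.0394, 0.00141 and 0.0394), Grm5 (0.276), Csmd1 (0.955), Gria4 (0.76), Rbfox1 (1), Zfp804a (0.245) and Nrg3 (0.863) did not, and Chrm3, Car10 and Nek11 were no longer tested. Nek11 was at 0 UMIs in both Sham libraries of the members, so its difference depends on the prior count of the fit.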

How the results depend on the processing

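The number of genes called in MCAO ipsi against Sham was 447. It was 437 without TMM factors, 449 with DESeq2 size factors and 540 without the filter, and moved to 214 with at least 10 UMIs in every library, 291 with reactive genes at 0 UMIs, 835 with no limit on them, 132 with nuclei thinned to 1000 UMIs (24 nuclei left in Sham L and 8 in Sham R), 173 with at least 10 astrocyte UMIs, 142 with neuron genes at 0 UMIs, 145 and 143 with free RNA subtracted by all and by 12 neuron markers, 307 without nuclei holding other types' markers (16 of 68 named genes lost their call), 294 without nuclei of 3 or more cell cycle UMIs, 207 in nuclei of at most 1500 UMIs and 160 with DESeq2. Leaving out 1 library gave 140 (Sham L) to 567 (mMCAO ipsi), and 217 without Sham R. Under the same settings MCAO ipsi against MCAO contra (216) moved to 66, 76, 686, 136 (astrocyte UMIs), 70, 86, 90, 92, 37 and 46, to 108 without nuclei holding other markers and 122 with only the 2 groups. With the rat pool as a replicate block, which pairs the hemispheres, it was 351, and 136 with free RNA subtracted; the block alone changed the call of none of the 29 named genes, and with subtraction 3 of the 29 were lost. Leaving out 1 library gave 99 (mMCAO contra) to 368 (mMCAO ipsi), and 116 without sMCAO contra. MCAO contra against Sham (15) moved to 37 without the filter, 1 with at least 10 UMIs, 1 with reactive genes at 0, 2 without that limit, 0 thinned, 0 with stricter astrocyte UMIs, 0 with neuron genes at 0, 24 without other markers, 0 and 1 with subtraction, 1 without cell cycle nuclei, 30 in shallow nuclei, 90 with 2 groups and 1 with DESeq2; leaving out 1 library gave 0 to 126. The difference from OPC nuclei (81) moved to 54 without the library block, 78 without the filter and 16 with subtraction. Of the named genes, Nrg3 reversed to 0.17 and Csmd1 to 0.63 with subtraction, and Csmd1 to 0.41 with 12 markers. Of 82 called named genes in MCAO ipsi against Sham 13 kept their call under each alternative in which they could be tested, and 10 of 29 in MCAO ipsi against MCAO contra; the filter of 10 UMIs in every library left 41 and 12 of them to test. The causes were not tested. The depth of Sham members limits what could be detected, and some alternatives were chosen after the data were seen.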
